A study of Homo sapiens with 2 samples.

Results

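Across the 7 genes examined here, DROSHA, DGCR8, XPO5, DICER1, EIF2C2, TNRC6A and TNRC6B, ADAR1 was mapped to 14 places on the RNA in U87MG cells. These genes encode core proteins that make microRNAs and carry out silencing by them. U87MG is an established human glioblastoma (astrocytoma) line. ADAR1 is the enzyme that changes adenosine to inosine in double-stranded RNA. The RNA bound to it was recovered by ultraviolet crosslinking and immunoprecipitation followed by sequencing (CLIP-seq), in 2 libraries titled AB1 and AB2 for the antibody. The series' design text names different monoclonal antibodies, while the labels give both libraries the same catalogue entry. All cells belonged to the same line without a further treatment or comparison group, and no library without antibody was used here.

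The authors deposited 1 list for both libraries, in which a line is a cluster, a stretch of the hg19 genome with CLIP reads. Each line has a position, a strand and the authors' call of Alu or non-Alu. A cluster was counted for a gene when its midpoint lay in the gene's hg19 interval and on the gene's strand. In this way 14 of the 23782 clusters, 0.0589%, were assigned to the 7 genes. The list has no read number, score or column per library. The depth behind a cluster is therefore unknown, the values have no replicates, and no difference between genes could be tested over samples. Whether a cluster lay in an exon, an intron or an untranslated region was not analysed here, and neither was how strongly each gene was transcribed.

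MicroRNAs begin as hairpins in long transcripts. DROSHA, the nuclear RNase III enzyme, and its double-stranded RNA-binding partner DGCR8 cut out the hairpin, XPO5 carries it to the cytoplasm, and the RNase III enzyme DICER1 trims it to a duplex. EIF2C2, better known as AGO2, holds the mature strand and can slice matching targets, and TNRC6A and TNRC6B are GW182 scaffold proteins that link Argonaute to the enzymes that shorten the poly(A) tail. ADAR1 is known to bind and edit some of these hairpins and to form a complex with DICER1 protein. The clusters described here are on the RNA of the genes themselves. Alu elements, the primate repeats that often stand as inverted copies in introns and untranslated regions, are the best known substrates of ADAR1.

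Of the 7 genes, 6 held at least 1 cluster, and 12 of the 14 clusters were of the Alu class. In the whole list of 23782 clusters, 84.9% were Alu, so a high Alu share is not particular to these genes. Of same-strand windows of 100 kb along the genome, 21.3% held at least 1 cluster, but these windows include sequence that is not transcribed. TNRC6B held 5 clusters, EIF2C2 3, DROSHA 2, TNRC6A 2, DICER1 1 and DGCR8 1, while XPO5 held 0. The non-Alu clusters were the single one of DGCR8 and 1 of the 3 of EIF2C2. Over the 4 genes that act before the silencing complex (DROSHA, DGCR8, XPO5 and DICER1) there were 4 clusters in 289.2 kb. Of these, 3 were Alu. Over the 3 genes of the silencing complex there were 10 in 492.7 kb, of which 9 were Alu.

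**Figure D1:**
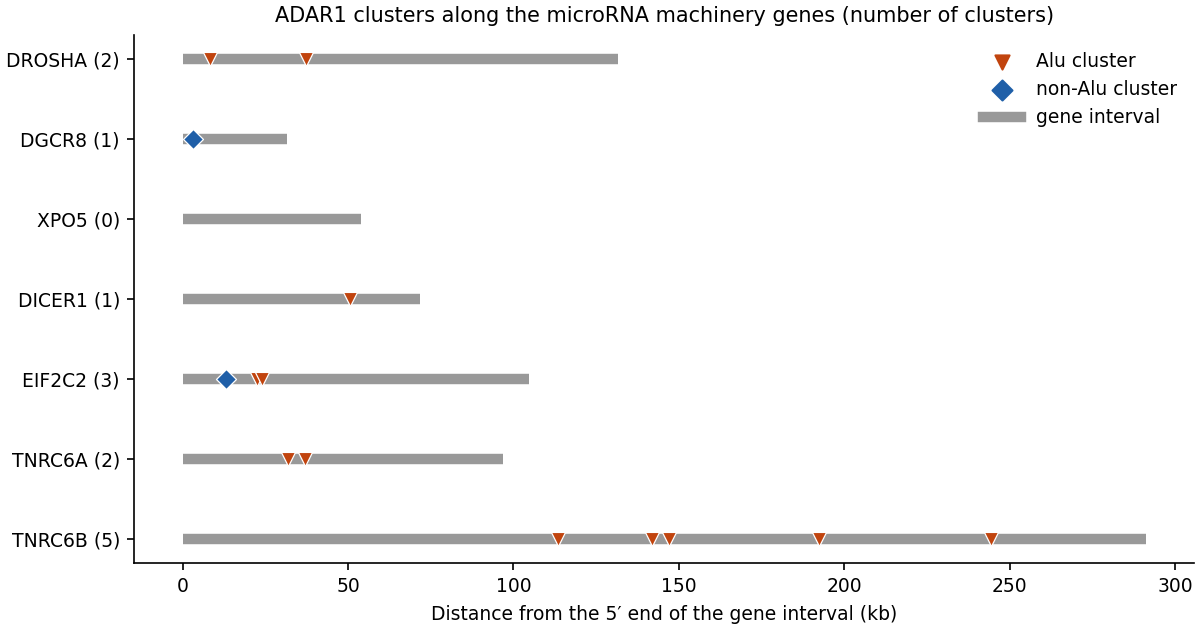
Positions of the 14 clusters along the 7 gene intervals. The x axis gives the distance of each cluster's midpoint from the 5′ end of the interval in kb, grey bars are the intervals, triangles are Alu and diamonds non-Alu clusters, and the number after each gene is its cluster count. The 3 clusters of EIF2C2 sit between 13.2 and 24.1 kb, and the 5 of TNRC6B between 113 and 244 kb.

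The Microprocessor enzyme DROSHA (chromosome 5, 31400600 to 31532300, minus strand) held 2 Alu clusters. The first, of 145 bases, lay from 31523926 to 31524070, 8.30 kb from the 5′ end of the interval. The second, of 153 bases, lay from 31494861 to 31495013, 37.4 kb from the 5′ end. They were 28.9 kb apart, and the 94.3 kb from the second one to the 3′ end held none. Among same-strand windows of the genome as long as DROSHA, 13.7% held 2 or more clusters. These windows cover all of each chromosome between its first and last cluster and are not limited to transcribed sequence.

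DGCR8 (chromosome 22, 20067700 to 20099400, plus strand), the shortest of the 7 intervals at 31.7 kb, held 1 non-Alu cluster. It was 189 bases long, from 20070766 to 20070954, and its midpoint was 3.16 kb from the 5′ end. No other cluster of the 14 lay so close to an end of its interval. Its nearest neighbour on the same strand was 62.3 kb away and outside the gene. A cluster was found in 9.4% of same-strand windows of this length.

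The export receptor XPO5 (chromosome 6, 43490000 to 43543900, minus strand) held no listed cluster on either strand. The nearest one on its strand lay 46.4 kb beyond the interval. Of windows as long as XPO5, 53.9 kb, 14% held 1 or more clusters, but these windows include sequence that is not transcribed. Among the other microRNA pathway genes at least 31.7 kb long, described below, 15 of 17 held a cluster. The list gives no minimum read number, so a place without a cluster cannot be told apart from one with too few reads.

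DICER1 (chromosome 14, 95552500 to 95624400, minus strand) held 1 Alu cluster of 183 bases, from 95573699 to 95573881. Its midpoint lay 50.6 kb from the 5′ end and 21.3 kb from the 3′ end, at 70.4% of the interval. It was the most isolated of the 14, with the next same-strand cluster 194.6 kb away. A cluster was found in 17.2% of windows of this length.

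EIF2C2, the slicing Argonaute (chromosome 8, 141541200 to 141645800, minus strand), held 3 clusters within 11069 bases near its 5′ end. The one nearest the 5′ end was the non-Alu cluster, 213 bases from 141632455 to 141632667. It was followed by an Alu cluster of 201 bases from 141623132 to 141623332 and an Alu cluster of 165 bases from 141621599 to 141621763. The gaps between them were 9.12 kb and 1368 bases, and the second is the smallest gap between any of the 14 clusters and its neighbour. The remaining 80.5 kb to the 3′ end held none. In same-strand windows as long as EIF2C2, 4.96% held 3 or more clusters.

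The GW182 genes differed in length and in how their clusters were spread. TNRC6A (chromosome 16, 24741000 to 24838000, plus strand) held 2 Alu clusters, of 186 bases from 24772889 to 24773074 and of 205 bases from 24777990 to 24778194. They were 4.92 kb apart, at 33.0% and 38.2% of the interval. Windows of this length held 2 or more clusters in 10.1% of cases. The TNRC6A interval is 44.6% of the gene's span in the GRCh38 annotation. Lengthening it at the 5′ end by the missing 120.4 kb added no cluster and put the same clusters at 70.1% and 72.4% of the longer span.

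TNRC6B (chromosome 22, 40440800 to 40731900, plus strand), the longest interval at 291.1 kb, held 5 Alu clusters. They lay from 40554190 to 40554361, from 40582436 to 40582659, from 40587854 to 40587919, from 40632956 to 40633125 and from 40685161 to 40685364. Their lengths were 172, 224, 66, 170 and 204 bases in that order, which includes both the longest and the shortest of the 14. The first midpoint was 113 kb from the 5′ end, so the 5′ part of the gene held none, and the gaps between consecutive clusters ran from 5.19 to 52.0 kb. Windows of this length held 5 or more clusters in 7.52% of cases.

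Cluster density takes interval length into account, but the counts were too small to rank the genes by it. DGCR8 had 3.15 clusters per 100 kb, EIF2C2 2.87, TNRC6A 2.06, TNRC6B 1.72, DROSHA 1.52, DICER1 1.39 and XPO5 0. The exact Poisson 95% intervals, which cover counting error only, ran from 0.591 to 8.38 per 100 kb for EIF2C2, from 0.558 to 4.01 for TNRC6B and from 0 to 6.84 for XPO5. All 7 intervals overlapped one another. At such small counts they are wide, overlap is not a test of a difference, and none was run. Over the longer span of 217.4 kb, TNRC6A had 0.920 clusters per 100 kb (0.111 to 3.32), below DICER1 in place of above TNRC6B. Together the genes had 1.79 clusters per 100 kb (95% interval 0.979 to 3.004, 14 clusters over 781.9 kb). The genes acting before the silencing complex had 1.38 per 100 kb (0.377 to 3.54) and those of the silencing complex 2.03 (0.973 to 3.73), intervals that overlap.

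**Figure D2:**
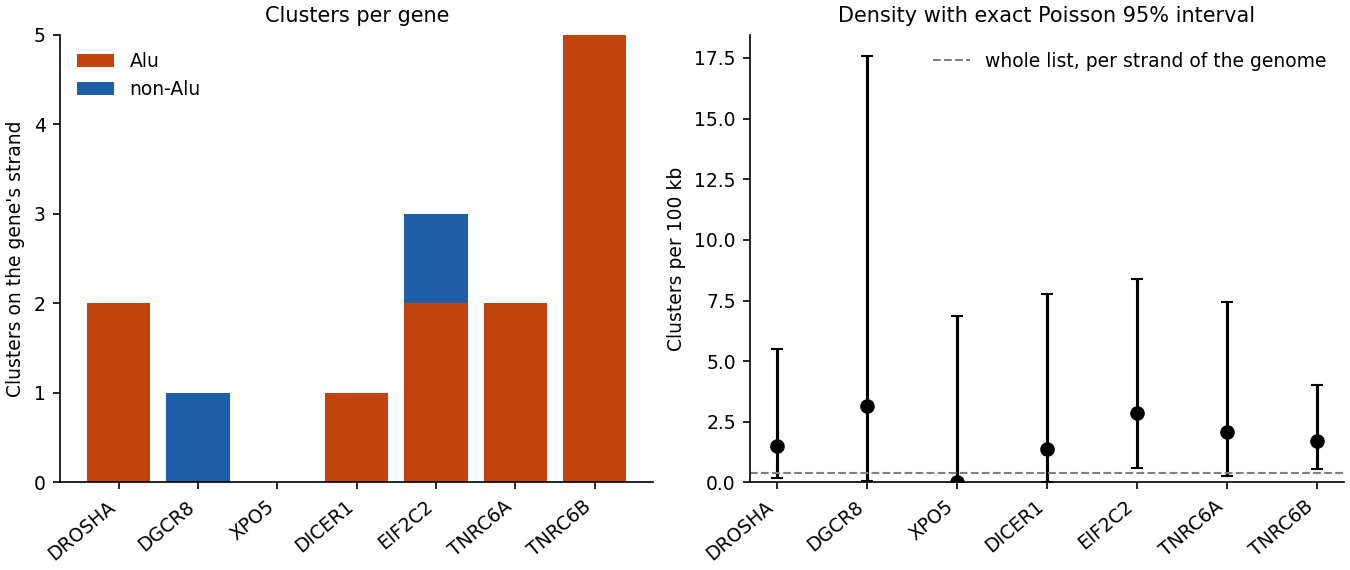
Left, clusters per gene, split into Alu and non-Alu. Right, clusters per 100 kb of the interval with exact Poisson 95% intervals, and as a dashed line the 0.401 clusters per 100 kb of the whole list on 1 strand of the genome. TNRC6B has the most clusters. The highest point for density, DGCR8, rests on 1 cluster (interval 0.0799 to 17.6 per 100 kb). The intervals of all 7 genes overlap, and the genes cannot be ranked by density.

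Set beside the genome as a whole, the 7 genes were denser, though the genome also holds sequence that is not transcribed. The whole list had 0.401 clusters per 100 kb of 1 strand, and the 7 genes had 4.46 times that density. With TNRC6A at its longer span the 7 genes had 1.55 clusters per 100 kb in place of 1.79. Of same-strand windows of 100 kb, 21.3% held a cluster. Those that did held 1.88 on average, close to the density of the 7 genes. That mean leaves out windows without a cluster, while the 7 genes include XPO5. The part of transcript level in these densities was not tested.

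The Alu share of the 7 genes could not be told apart from that of the list at this number of clusters. It was 85.7% (12 of 14, Wilson 95% interval 60.1 to 96.0%), against 84.9% in all 23782 clusters. By the counting rule all 14 clusters lay on the strand of the gene. The opposite strand of the same intervals held 0, so the sense share over both strands was 100% (Wilson 95% interval 78.5 to 100%). In the other pathway genes described below, 1 cluster lay on the opposite strand and 47 on the gene's strand. The nearest cluster on the opposite strand to any of the 14 was 63.1 kb away, beside DICER1. Opposed Alu clusters on both strands of the same place were thus not listed in these genes.

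Cluster lengths were like those of the list. The median over the 14 was 184.5 bases (range 66 to 224), against 192 bases over the list (interquartile range 151 to 221), and 11 of the 14 fell inside that interquartile range. The DGCR8 and EIF2C2 non-Alu clusters, at 189 and 213 bases, lay within the range of the Alu clusters. Together the clusters covered 2476 bases, or 0.317% of the intervals. None of the 14 had a same-strand neighbour within 1000 bases, which 6.7% of all clusters had, but 14 clusters are too few to tell such a share from none. The distance to the nearest same-strand cluster had a median of 18.6 kb, against 17.7 kb over the list.

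**Figure D3:**
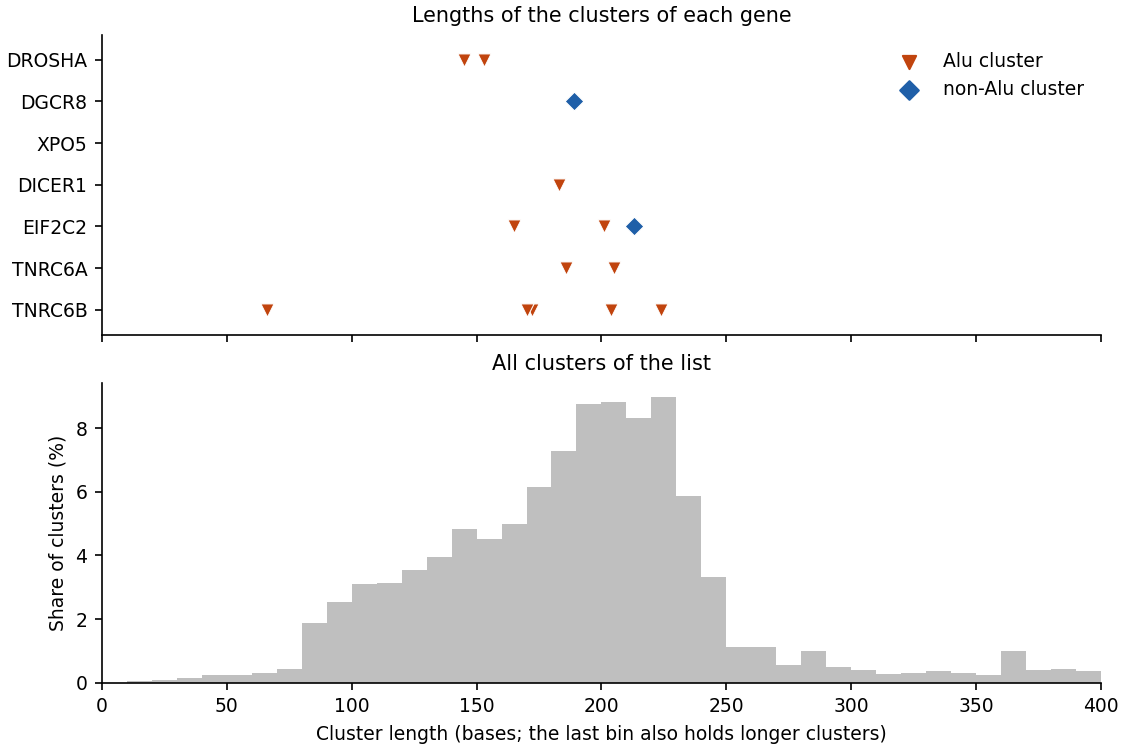
Cluster length in bases on the shared x axis. The upper panel shows each cluster of each gene (triangles Alu, diamonds non-Alu) and the lower panel the share of all 23782 clusters per bin of 10 bases. Apart from the 66-base cluster of TNRC6B, the clusters of the 7 genes lie between 145 and 224 bases, within the bulk of the list.

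Along the genes, 10 of the 14 midpoints lay in the first 50% of the interval from its 5′ end (71.4%, Wilson 95% interval 45.4 to 88.3%, which includes an even split), with a median position at 35.6% of the interval. The 4 others were 3 of the 5 in TNRC6B and the DICER1 cluster. With TNRC6A at its longer span the count was 8 of 14 (57.1%, 32.6 to 78.6%) and the median position 43.8%. One cluster, in TNRC6B, lay in the last 25% of its interval. In the other pathway genes described next, 24 of 47 clusters were in the first 50% (51.1%, 37.2 to 64.7%), and the intervals of these shares overlap.

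The 7 genes were set beside 29 other genes of the microRNA pathway. The list took in Argonaute paralogs, partners of DROSHA and DICER1, factors that bind, tail or degrade precursors, proteins associated with the silencing complex, and deadenylation and decay enzymes. Of the 29, 18 held at least 1 cluster and 11 held 0, while 21.3% of same-strand windows of 100 kb held at least 1. With windows as long as each of the 29 genes, that share ran from 2.09 to 49.1%. They had 47 clusters, 2.04 per 100 kb (95% interval 1.502 to 2.72), which overlaps the 1.79 of the 7 genes. Of these 47, 35 were Alu (74.5%, Wilson 95% interval 60.5 to 84.7%), against 84.9% in the whole list. SND1 alone held 6 of the 12 non-Alu clusters, and without it 32 of 38 were Alu (84.2%, 69.6 to 92.6%). Leaving SND1 out was chosen after the data were seen and raises the Alu share by construction. Their intervals were written by hand and not read from an hg19 annotation.

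The other Argonaute genes, paralogs of EIF2C2, also held clusters. EIF2C4 (AGO4) held 4, EIF2C1 (AGO1) 2 and EIF2C3 (AGO3) 2, of which 7 of 8 were Alu, against 84.9% in the whole list. Same-strand windows of these lengths held 1 or more clusters in 12.8, 12.6 and 24.6% of cases, in that order. The share with as many clusters as each gene, given above for EIF2C2, was not computed for these 3. With EIF2C2, the 4 Argonaute genes had 11 clusters, 3.40 per 100 kb (95% interval 1.69 to 6.07), and each held at least 1 Alu cluster. However, EIF2C4, EIF2C1 and EIF2C3 lie close together, in that order, on the plus strand of chromosome 1. Thus 8 of the 11 clusters came from the same region, and the 4 genes are not separate instances. A feature of that region cannot be told apart here from one of the gene family. The intervals of EIF2C1, EIF2C3, EIF2C2 and EIF2C4 were 76.6, 88.5, 90.6 and 95.3% of their GRCh38 spans. Density over the full spans was not computed. The GW182 paralog TNRC6C was left out of the 29 because its interval was 70.0% of the annotated span. TNRC6A, at 44.6%, also fell outside that limit but was kept, since the limit was not applied to the 7 genes. Its interval held 5 clusters, 4 Alu and 1 non-Alu, on the gene's strand.

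Of the proteins that work with DROSHA and DICER1, 5 short genes of 5.6 to 23 kb held no listed cluster, as did most windows of their lengths (2.09 to 7.24% of same-strand windows held 1 or more). These are DDX5, DDX17 and SRRT, helicases and an RNA-binding factor that work with the Microprocessor, and TARBP2 and PRKRA, the double-stranded RNA-binding partners of DICER1. RAN, the GTPase that drives XPO5 export, held none either, nor did the precursor-binding protein KHSRP, the silencing-complex protein GEMIN4, or the decay factors DCP2, EDC4 and XRN2. PRKRA had 1 cluster on the opposite strand, the only one of that kind in the 29 genes.

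Genes without a cluster were mostly short. Among the 29, 12 intervals were shorter than the 31.7 kb of DGCR8 and 9 of them held 0 clusters. Of the 17 longer ones, 2 held none, DCP2 and XRN2. Same-strand windows as long as the 12 shorter intervals held 1 or more clusters in 2.09 to 8.45% of cases. For the 17 longer ones that share was 11.1 to 49.1%, with 12.2% for DCP2 and 19.5% for XRN2. XPO5, at 53.9 kb, was longer than DCP2 and shorter than XRN2. The most clusters were in SND1, a nuclease that binds inosine-containing RNA, with 9 (3 Alu and 6 non-Alu) over 440.5 kb. DIS3L2, the exonuclease that degrades tailed let-7 precursors, held 4 Alu clusters over 383.2 kb. LIN28B, ZCCHC11, FMR1, XRN1 and PAN3 held 3 each. In FMR1, 2 of the 3 were only 16 bases apart, and merging of close clusters was not applied to the 29 genes.

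**Figure D4:**
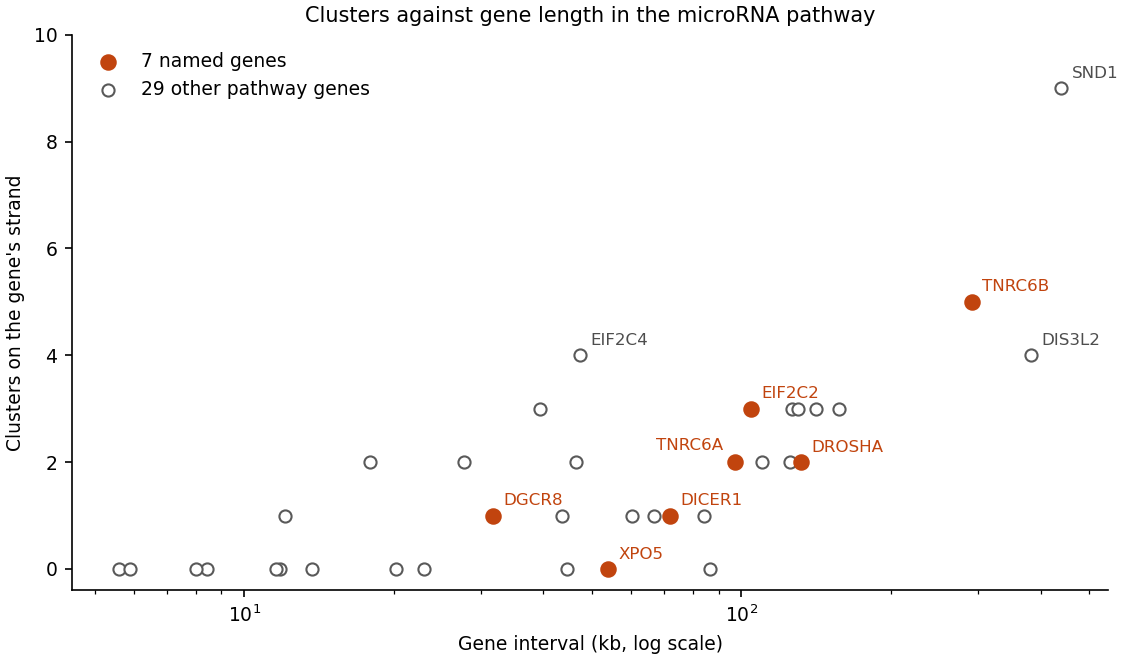
Number of clusters on the gene's strand against the length of the gene interval in kb (log scale), for the 7 genes (filled) and the 29 other pathway genes (open). The 7 genes lie among the others, with TNRC6B at 5 clusters below SND1 at 9, and most genes with 0 clusters are at the short end.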

How the data were processed

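CLIP-seq with ADAR1 antibodies was performed on U87MG cells in 2 libraries. Per the submitters' processing notes, cutadapt 1.1 and Novoalign 2.08.22 were used and reads were placed on hg19. The way clusters were called and filtered, both libraries joined and a cluster classed as Alu was not given in the sources used here. The deposited list holds positions in bases, and other columns hold class and strand. No measured value, score or count of reads is in it. How reads that match many repeats were handled can change which Alu copies are listed, and was not tested.

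Positions are printed counting from 1, reading the listed starts as counted from 0, which the list does not state. Gene intervals are hg19 positions rounded to 100 bases. The members and lists were chosen with earlier results of these data known. All 7 genes are named. Of the other pathway genes the text names the paralogs, those with no cluster and the 5 with most clusters (8 with ties). Intervals of these genes were kept if chromosome and strand matched GENCODE 29 (GRCh38) and the span was within 25% of it, as for 29 of 30. GRCh38 coordinates were not used with the clusters. No hg19 genome was used, so no sequence is printed.

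Counts have exact Poisson and shares Wilson 95% intervals, which cover counting error only, and clusters are not replicates. Windows tiled each strand of a chromosome over the stretch that holds clusters. Analyses used scipy 1.17.1, pandas 2.3.3 and numpy 2.4.6 under Python 3.11.15. The counting was tested on simulated clusters. Alternatives were any overlap or full containment in place of the midpoint, wider intervals, strand ignored, a length filter and merging.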

Additional observations from a re-analysis of the deposited data

How the results depend on the processing

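Of 89 alternative values, 82 stayed within the set range (1.5-fold for a count, the 95% interval otherwise). The others all came from keeping only clusters of 192 bases or more, the median length of the list. That filter left 5 of the 14 clusters and 0.639 clusters per 100 kb, with none in DROSHA, DGCR8 or DICER1, 1 in TNRC6A and 2 in TNRC6B. It removes the shorter clusters by construction, and 9 of the 14 were below that length. The Alu share was 80% under it and 85.7% in all other settings. Any overlap, full containment, intervals wider by 1 or 10 kb, ignoring strand, merging within 50 bases and, chosen after the data were seen, a longer TNRC6A all left 14 clusters in the same numbers per gene. The longer TNRC6A moved that gene's density to 0.920 per 100 kb. No paired analysis was possible because the list does not separate the libraries, which also kept either library from being left out. With no read numbers, weak clusters and places without a cluster cannot be judged.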
